A study of Mus musculus with 4 samples.

Results

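The enzymes of fatty acid synthesis, elongation, desaturation and activation were followed in NIH-3T3 mouse fibroblasts treated with activators of chaperone-mediated autophagy (CMA), a route that delivers single proteins to lysosomes. The family comprised 10 genes (Acly, Acaca, Fasn, Scd1, Scd2, Elovl5, Elovl6, Fads1, Fads2 and Acsl3) of 36838 gene names on the array. They were chosen by name, with earlier results of these data known, and measured by all 13 of 55378 probes whose accession mapped to these symbols. Counts of members beside shares of all genes therefore describe the family and are no test. NIH-3T3 is an immortalised mouse fibroblast line, and the cells were wild type in all groups. Confluent cultures were left untreated or received AR7, CA39 or CA77, each at 20 µM for 24 h. CA39 and CA77 are analogues of AR7, and all of them bind the retinoic acid receptor RARα. The untreated culture is described as having received nothing. The paper's methods name DMSO for dosing animals and give no solvent for these cultures, so compound and any solvent cannot be told apart. Each group had 1 culture and 1 array, so no difference had a replicate check and no test between groups was possible.

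Values are normalized probe intensities on the log2 scale, where a difference of 1 is 2-fold. The only error that could be measured was that between repeated spots on an array, from 399 probes printed 10 times each, and it gave a tolerance of 0.16 for a difference between 2 arrays. This tolerance is about 1 standard deviation of a difference between 2 single spots, so genes without a change can also lie past it. It leaves out the spread between cultures. All 13 probes were well above background on all 4 arrays, and 0 spots were saturated. The median net signal per array lay between 138 and 167.5 scanner units, and 52.2% to 69.7% of all probes were detected. The untreated array lay in another row of the slide than the treated arrays, so treatment cannot be told apart from the row of the slide. CA77 was read in scan 2 and the others in scan 1, so CA77 cannot be told apart from the scan. Of 12 fibroblast markers, 11, 10, 11 and 10 were detected on untreated, AR7, CA39 and CA77, with the collagen gene Col1a1 and the intermediate filament gene Vim detected on all arrays.

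Cells make fatty acids from acetyl-CoA, which Acly releases from citrate in the cytosol. Acaca carboxylates it to malonyl-CoA, Fasn builds palmitate from these units, elongases and desaturases lengthen the chain and insert double bonds, and acyl-CoA synthetases activate the products for use in lipids. Transcription of most of these genes is driven by the sterol regulatory element-binding proteins (SREBPs), which also drive sterol synthesis and are held in the endoplasmic reticulum by INSIG proteins when sterols are plentiful.

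With CA39, 10 of 10 genes were higher than untreated, while they were lower in 10 of 10 with AR7 and in 9 of 10 with CA77. The median difference from untreated was 0.79 with CA39 (0.08 to 1.13), -0.30 with AR7 (-0.49 to -0.06) and -0.42 with CA77 (-0.76 to 0.02). The medians over all genes compared were -0.02, -0.03 and -0.04. With CA39, 9 of 10 members were past 1.5-fold higher, all but Elovl5, against 6.93% of 27894 genes, and 2 of 10, Scd2 and Acsl3, were past 2-fold, against 3.86%. With the mean over probes, Acaca was at 0.52 and the count past 1.5-fold was 8. Among genes detected on all 4 arrays, as all members were, 5.6% were past 1.5-fold higher with CA39. With AR7, 0 of 10 were past 1.5-fold or 2-fold lower, where the shares of 27855 genes were 3.22% and 1.07%. With CA77, 2 of 10, Fasn and Elovl6, were past 1.5-fold lower and 0 past 2-fold, against 3.53% and 0.747% of 28126 genes. The treated arrays were all compared with the same untreated array, so these comparisons share its error. A lower level of a transcript and fewer cells that carry it cannot be told apart in such RNA pools.

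The smaller differences were read against the tolerance. With AR7, 9 of 10 members were lower by at least 0.16, all but Fads1, where 26.2% of all genes were. Acly, Scd1 and Scd2 were just past the tolerance, and the count was 8 with the mean over probes or the processed signal scaled to the 75th percentile and 7 with that signal quantile normalized. With CA77, 6 of 10 were lower by that much (Acaca, Fasn, Scd1, Scd2, Elovl6 and Acsl3), where 30.4% of all genes were. With CA39, 9 of 10 were higher by that much, against 20.9% of all genes, and Elovl5 was the exception.

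**Figure D1:**
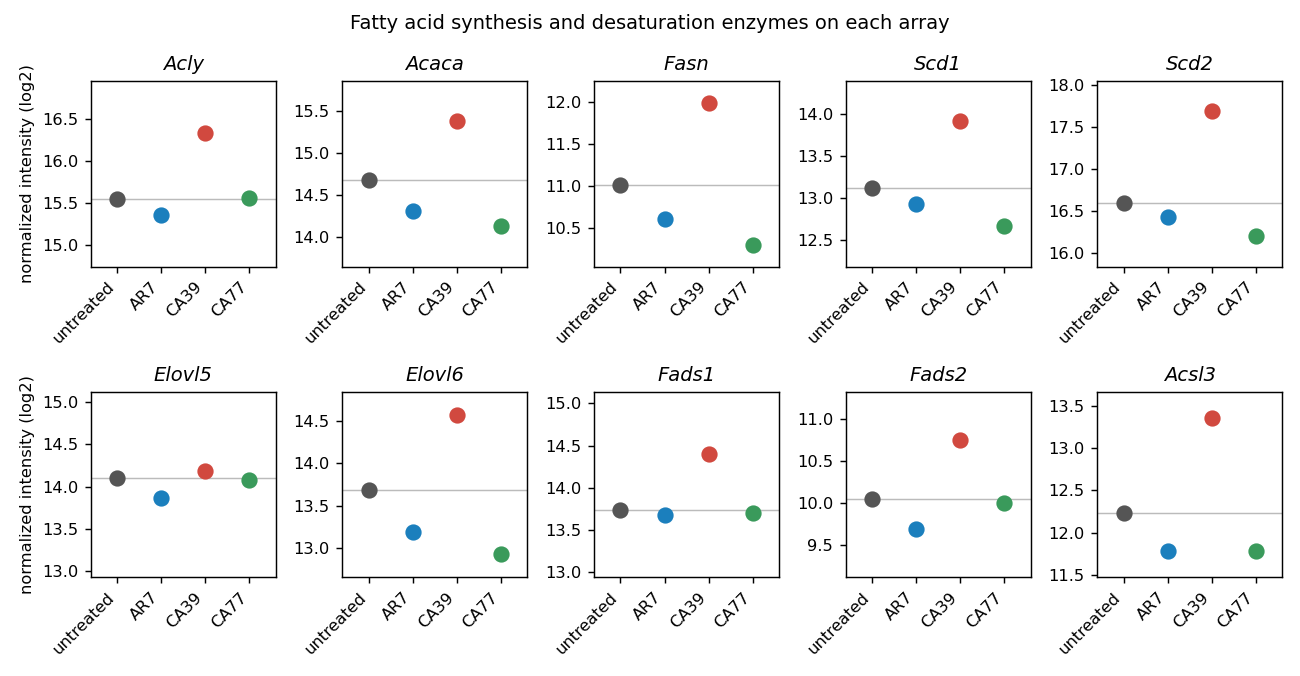
Normalized intensity (log2) of the brightest probe of each of the 10 genes on the untreated, AR7, CA39 and CA77 arrays, 1 point per array. The grey line marks the untreated value and every panel spans the same number of log2 units. CA39 was the highest array in 10 of 10 genes, in Elovl5 by less than the tolerance.

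The order of the arrays was shared by most members. CA39 was highest and untreated second in 9 of 10 members, against 12.8% of 20594 genes detected on all 4 arrays. Counting only steps of at least the tolerance, this order was seen in 6 of 10 (Acaca, Fasn, Scd1, Scd2, Elovl6 and Acsl3), against 2.53% of the same genes. In Acly, Elovl5, Fads1 and Fads2, untreated and CA77 differed by less than the tolerance. CA77 was lowest by at least the tolerance in Acaca, Fasn, Scd1, Scd2 and Elovl6. AR7 was lowest by that much in Acly, Elovl5 and Fads2, although the second Acly probe had CA77 lowest. The shares of all genes with CA77 or AR7 lowest were not computed, so these names are a description only. In Fads1 and Acsl3, AR7 and CA77 could not be ordered.

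The start regions of the genes that differed most between arrays are shown beside that of the gene that differed least with CA39. RefSeq promoter windows (build GRCm38.p6) were matched for 7 of the 10 members. The 250 bases before the annotated start are printed 5′ to 3′ on the strand of the gene for Fasn and Elovl6, which had the largest ranges over the arrays, for Acsl3, which was highest with CA39, and for Elovl5. Capitals mark every match, on either strand, to the CCAAT box (CCAAT), the E-box (CACGTG), the GC box (GGGCGG) or the sterol regulatory element (TCACNCCAC).
Fasn (chr11:120824548-120824797, minus strand): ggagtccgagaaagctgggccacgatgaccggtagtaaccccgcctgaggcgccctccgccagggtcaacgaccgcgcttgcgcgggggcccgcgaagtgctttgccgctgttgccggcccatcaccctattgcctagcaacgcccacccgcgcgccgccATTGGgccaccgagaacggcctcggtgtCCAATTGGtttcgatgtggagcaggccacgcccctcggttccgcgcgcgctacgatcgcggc
Elovl6 (chr3:129532136-129532385, plus strand): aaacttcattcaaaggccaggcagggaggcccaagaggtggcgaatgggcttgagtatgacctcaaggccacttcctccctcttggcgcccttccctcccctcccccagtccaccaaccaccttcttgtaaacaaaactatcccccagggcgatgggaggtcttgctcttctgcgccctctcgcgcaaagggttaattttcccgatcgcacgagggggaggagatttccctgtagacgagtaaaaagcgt
Acsl3 (chr1:78657575-78657824, plus strand): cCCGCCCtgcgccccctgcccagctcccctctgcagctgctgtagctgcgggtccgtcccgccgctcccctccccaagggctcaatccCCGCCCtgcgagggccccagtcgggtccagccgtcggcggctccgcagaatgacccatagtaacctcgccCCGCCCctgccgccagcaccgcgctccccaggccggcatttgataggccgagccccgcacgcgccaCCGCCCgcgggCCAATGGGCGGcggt
Elovl5 (chr9:77917115-77917364, plus strand): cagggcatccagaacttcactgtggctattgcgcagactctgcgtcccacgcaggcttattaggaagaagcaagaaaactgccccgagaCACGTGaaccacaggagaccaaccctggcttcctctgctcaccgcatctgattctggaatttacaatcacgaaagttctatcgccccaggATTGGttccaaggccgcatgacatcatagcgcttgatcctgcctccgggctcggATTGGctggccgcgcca

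The 4 windows differed in these letters. The Fasn window held 3 CCAAT matches, at 90 to 86, 62 to 58 and 59 to 55 bases before the start. The Elovl6 window, from a gene whose differences between arrays were close to those of Fasn, held no match to any of the 4 motifs. The Acsl3 window held 5 GC boxes and 1 CCAAT box, with the last GC box starting at the base after the CCAAT box. The Elovl5 window held 2 CCAAT boxes and 1 E-box. Over the 7 matched members, CCAAT was found in 3, the GC box in 3 (Acly, Fads2 and Acsl3), the E-box in 1 and the sterol regulatory element in 0. In 32851 RefSeq windows of the same length the shares were 33.85%, 32.74%, 6.021% and 1.053%. A match is a description of these letters only, and no match says only that they do not stand in this window.

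Acly and Acaca carry out the first steps. Acly read 15.55 (untreated), 15.36 (AR7), 16.34 (CA39) and 15.56 (CA77). CA39 was 0.79 above untreated, AR7 was just below it (-0.18), and CA77 was level with it. A second, dimmer Acly probe read 8.59, 8.49, 9.09 and 8.23 in the same order. The 2 probes shared the higher value with CA39 (0.50 on the second) but not the CA77 value, which was 0.36 below untreated on the second probe.

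Acaca, the acetyl-CoA carboxylase of the cytosol, read 14.67 (untreated), 14.30 (AR7), 15.37 (CA39) and 14.13 (CA77). Here CA39 was higher by 0.70, while AR7 (-0.37) and CA77 (-0.55) were both lower. Its other probes read 8.44, 7.89, 9.05 and 7.94, and 8.18, 7.71, 8.44 and 7.48. All 3 Acaca probes thus gave the same signs, with CA39 differences of 0.70, 0.61 and 0.26, AR7 differences of -0.37, -0.55 and -0.47, and CA77 differences of -0.55, -0.51 and -0.70.

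Fasn, the synthase that builds palmitate, had the widest range of the family, 1.68. It read 11.01 (untreated), 10.61 (AR7), 11.99 (CA39) and 10.31 (CA77). CA39 was 1.97-fold above untreated, just inside the 2-fold threshold, and untreated was 1.63-fold above CA77. The AR7 value lay between untreated and CA77, 0.40 below untreated.

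Elovl6 adds carbons to palmitate, and Elovl5 acts on polyunsaturated chains. Elovl6 read 13.68 (untreated), 13.19 (AR7), 14.57 (CA39) and 12.93 (CA77). It was higher with CA39 by 0.89 and lower by the largest amounts in the family with AR7 (-0.49) and CA77 (-0.76). Elovl5 read 14.10, 13.87, 14.18 and 14.07 in the same order. Its only difference from untreated beyond the tolerance was that of AR7 (-0.24), and CA39 (0.08) and CA77 (-0.03) were within it.

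**Figure D2:**
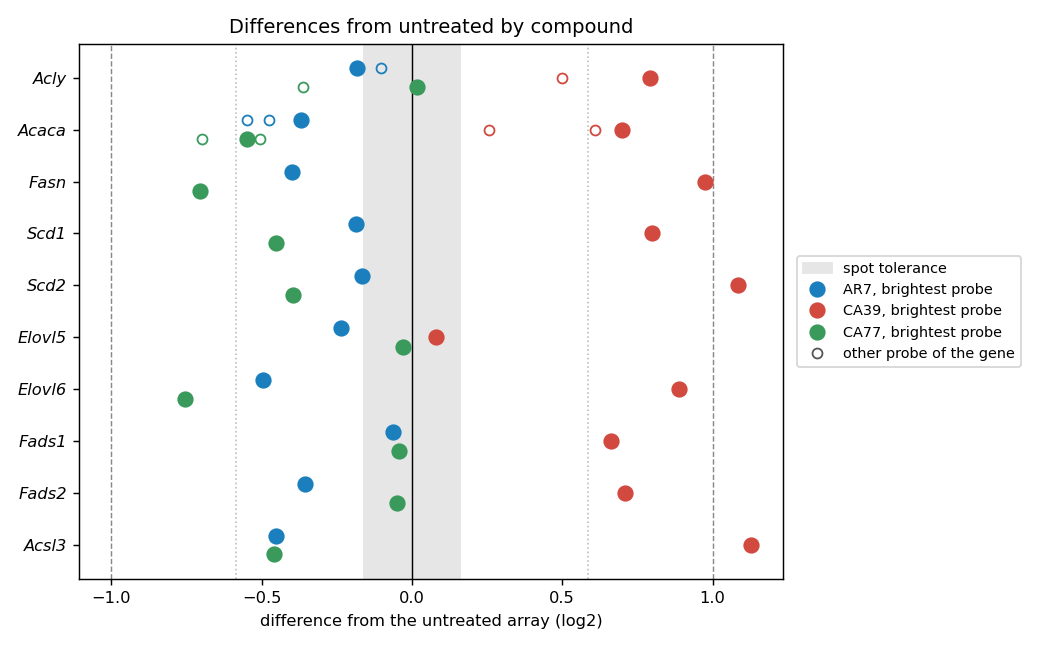
Difference from the untreated array (log2) for each gene with AR7, CA39 and CA77. Filled points are the brightest probe and open points the other probes of Acly and Acaca, the grey band is the tolerance of 0.16, dotted lines mark 1.5-fold and dashed lines 2-fold. The filled CA39 points of 9 genes lie right of the 1.5-fold line and that of Elovl5 lies at 0.08, while the open CA39 points of 1 Acly and 1 Acaca probe lie left of that line, at 0.50 and 0.26.

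Scd1 and Scd2 are stearoyl-CoA desaturases, which place the double bond of oleate and palmitoleate. Scd1 read 13.11 (untreated), 12.93 (AR7), 13.91 (CA39) and 12.66 (CA77). Scd2 read 16.60, 16.43, 17.68 and 16.20. Both were higher with CA39, Scd2 by 1.08 (2.12-fold) and Scd1 by 0.80. Both were lower with CA77 (-0.45 and -0.40), and both AR7 differences (-0.18 and -0.17) were just beyond the tolerance. The pair lies close together in the genome, with Scd4 and the microRNA gene Mir5114 between them in RefSeq. Scd3, in the same neighbourhood, differed from untreated by -0.25 for AR7, 0.44 for CA39 and -0.14 for CA77 on its brightest probe. Its 2 dimmer probes were lower with CA39, at -0.23 and -0.41, the latter well above background on 2 arrays only, so the direction of Scd3 with CA39 depended on the probe.

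Fads1 and Fads2, the delta-5 and delta-6 desaturases of polyunsaturated fatty acids, are neighbours with 1 non-coding gene between them. Fads1 read 13.74 (untreated), 13.68 (AR7), 14.40 (CA39) and 13.70 (CA77). Fads2 read 10.04, 9.69, 10.75 and 10.00. Both were higher with CA39, by 0.66 and 0.71, and both stayed within the tolerance with CA77 (-0.04 and -0.05). They parted with AR7, where Fads2 was lower (-0.36) and Fads1 was within the tolerance (-0.06). Fads3, next to Fads2, was 0.59 higher with CA39, 0.23 lower with CA77 and within the tolerance with AR7 (0.02).

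Acsl3 activates long-chain fatty acids at the endoplasmic reticulum and lipid droplets. It read 12.24 (untreated), 11.78 (AR7), 13.36 (CA39) and 11.78 (CA77). Its CA39 value was the highest of the family relative to untreated, at 1.13 (2.18-fold), and AR7 and CA77 were both lower (-0.45 and -0.46). The Acsl3 spot lay among neighbouring spots that also deviated on the CA39 array, and the part of this in its value was not tested. Without it, 1 member, Scd2, was past 2-fold with CA39.

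Compared at the same dose and time, CA39 parted from both other compounds by larger medians than these did from each other, with Elovl5 an exception, where CA39 and CA77 were within the tolerance. The 3 pairs of compounds were compared with no test and no interval beyond the spot tolerance, and CA77 was read in another scan than AR7 and CA39. CA39 exceeded AR7 in 10 of 10 members, by a median of 1.07 (0.32 to 1.58). Of these, 9 were past 1.5-fold and 6 past 2-fold (Acaca, Fasn, Scd2, Elovl6, Fads2 and Acsl3), against 9.43% and 5.13% of 23075 genes. CA39 exceeded CA77 in 10 of 10, by a median of 1.25 (0.11 to 1.68). Again 9 were past 1.5-fold and 6 past 2-fold, with Scd1 in place of Fads2, against 8.18% and 4.5% of 25457 genes. CA77 and AR7 differed by a median of -0.09 (-0.31 to 0.31), with 0 of 10 past 1.5-fold, where 6.9% of 25344 genes were past it in either direction. Apart by at least the tolerance were 8 of 10, against 39.5% of all genes. Acly (0.20), Elovl5 (0.21) and Fads2 (0.31) were higher with CA77, and Acaca (-0.18), Fasn (-0.31), Scd1 (-0.27), Scd2 (-0.23) and Elovl6 (-0.26) were higher with AR7. The sign for Acly rested on its brighter probe, since the mean over both probes was -0.03.

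**Figure D3:**
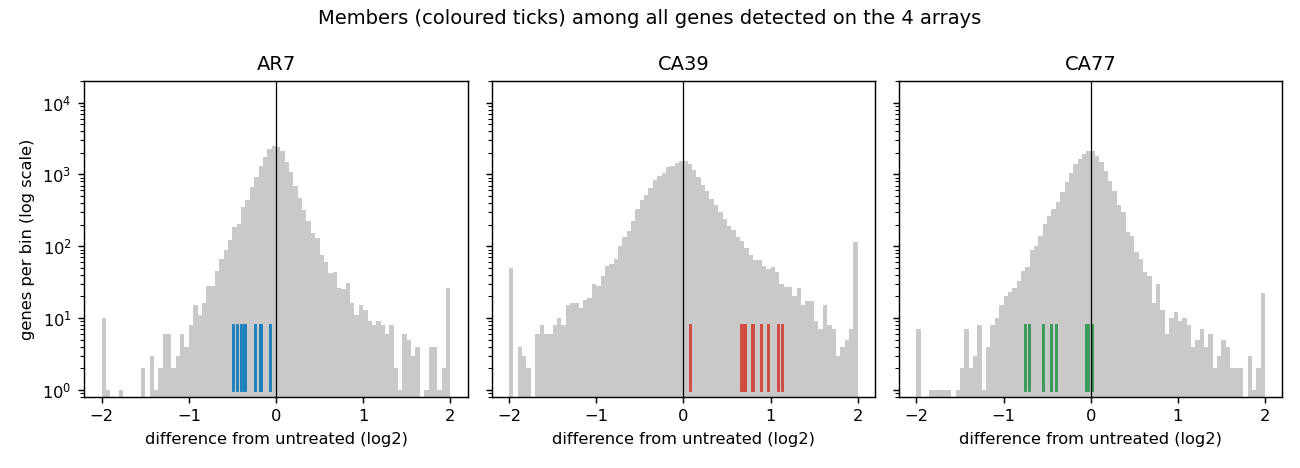
Number of genes per bin of 0.05 (log scale) by difference from untreated (log2), for the 20594 genes detected on all 4 arrays. Values past 2 in either direction are stacked in the end bins, and coloured ticks of fixed height mark the 10 members. The CA39 ticks lie on the right side, 9 of them together above 0.6 and Elovl5 at 0.08, and the AR7 ticks all lie left of 0.

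Fasn, with the widest range, was set against 13009 other gene symbols detected on all 4 arrays by the distance between centred log2 values. Within the family, Elovl6 was nearest to it (0.075), then Scd2 (0.23) and Acsl3 (0.24). Outside it, the nearest were Col6a1, a collagen VI chain (0.18), Brinp3 (0.19), the RNA-editing enzyme gene Apobec1 (0.20), Aacs, which activates acetoacetate for lipid synthesis (0.21), and Farp1 (0.21). Col6a1, for example, read 13.86 (untreated), 13.43 (AR7), 14.63 (CA39) and 13.18 (CA77). These distances rest on 4 arrays and are given as a description.

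The sterol synthesis genes, listed for their shared control by SREBPs, had medians of the same signs as the family. All 23 were detected, with medians of 0.77 with CA39, -0.49 with AR7 and -0.49 with CA77. Past 1.5-fold were 18 higher with CA39 (6 past 2-fold), 7 lower with AR7 and 9 lower with CA77, against the shares of all genes given above. Pmvk, a kinase of the mevalonate pathway, differed by 1.24 with CA39, -0.55 with AR7 and -0.66 with CA77. Of the 6 past 2-fold with CA39, the spots of Mvk and Cyp51 lay among deviating neighbours.

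Among the regulators of lipogenesis, Insig1 followed the same order of arrays. It read 10.69 (untreated), 9.77 (AR7), 11.84 (CA39) and 9.95 (CA77), and its spot lay among deviating neighbours on the CA39 array. Insig1 is itself a known SREBP target. The mRNAs of the SREBPs differed from untreated by less than 1.5-fold. Srebf1 differed by 0.06 for AR7, 0.13 for CA39 and 0.16 for CA77, and Srebf2 by -0.13, 0.27 and 0.03. The 1 Srebf1 probe was dim, at 7.14 (untreated), 7.20 (AR7), 7.28 (CA39) and 7.31 (CA77). The 1st percentile of detected signals was 6.82 on AR7 and 6.87 on CA39, so the Srebf1 differences say little. Scap, the escort protein of the SREBPs, stayed within the tolerance at 0.12, 0.14 and 0.08. Over the 15 regulators compared, the medians were 0.05 for AR7, 0.08 for CA39 and 0.03 for CA77. Past 1.5-fold were Insig1 in all comparisons and Nr1h3 (LXRα), which was 2.14 higher with CA77. Its spot lay among deviating neighbours on that array, and its other probe, detected on 2 arrays, was 0.26 higher.

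Enzymes next to the family in the pathway had list medians nearer to 0. The 9 compared genes for the supply of acetyl-CoA, malonyl-CoA and NADPH had medians of 0.02 (AR7), 0.05 (CA39) and 0.14 (CA77). Idh1, which makes NADPH in the cytosol, was 1.07 higher with CA39, and the citrate carrier Slc25a1 and the pyruvate dehydrogenase subunit Pdha1 were 0.71 and 0.59 higher. Pgd and G6pdx of the pentose phosphate pathway were past 1.5-fold with AR7, at 1.05 and 0.79. Pgd was also higher with CA39 (0.41) and CA77 (0.57), and G6pdx was within the tolerance with CA39 (-0.05) and higher with CA77 (0.36). The malic enzyme gene Me1 differed by 0.23, -0.05 and 0.23 with AR7, CA39 and CA77, and Acacb, the mitochondrial carboxylase, by 0.07, -0.01 and 0.28.

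The other elongation enzymes had medians of -0.03 (AR7), 0.00 (CA39) and 0.02 (CA77) over 7 genes compared. Of these 1 was past 1.5-fold, Hsd17b12, the ketoacyl-CoA reductase of the elongation cycle, at 0.69 with CA39. The other desaturases and their electron carriers had medians of -0.04, 0.18 and -0.11 over 8 genes, and cytochrome b5 (Cyb5a) was 0.87 higher with AR7. The other acyl-CoA synthetases had medians of 0.00, 0.09 and -0.09 over 11 genes. Past 1.5-fold among them were Acsbg1, at 1.33 with AR7 and 2.18 with CA39, Acss2, the cytosolic acetyl-CoA synthetase, at 0.63 with CA39, and Acss1, the mitochondrial one, at 1.06 with CA39. Acss2 also had the signs of the family with AR7 (-0.42) and CA77 (-0.12, within the tolerance), and Acss1 was not well above background on the AR7 and CA77 arrays.

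**Figure D4:**
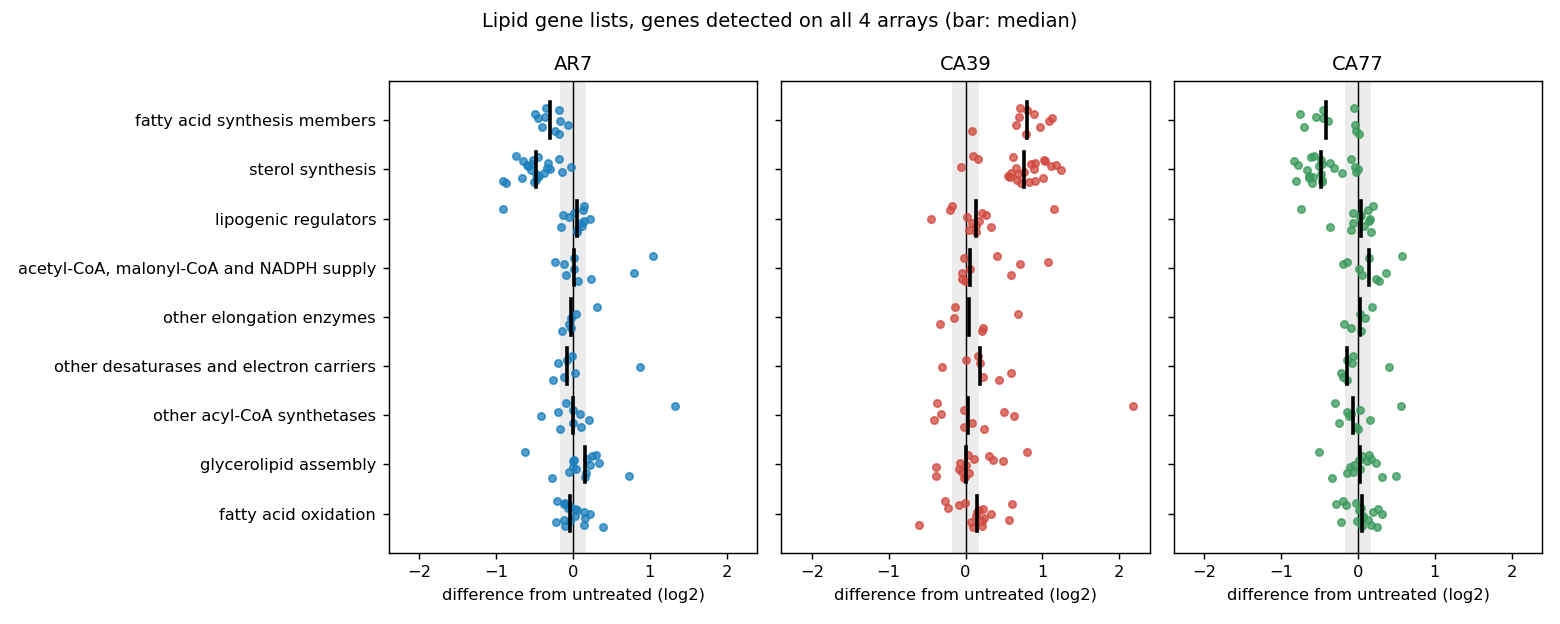
Difference from untreated (log2) with AR7, CA39 and CA77 for each gene of 9 lipid gene lists, limited to genes detected on all 4 arrays. Points are genes, black bars list medians and the grey band is the tolerance. The fatty acid and sterol synthesis lists lie right of 0 with CA39, at medians of 0.79 and 0.77, and left of 0 with AR7 and CA77.

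The lists for the use of fatty acids also had medians near 0. Over 16 genes of glycerolipid assembly the medians were 0.09 for AR7, 0.02 for CA39 and 0.02 for CA77. Lpin1, a phosphatidate phosphatase, had the order of the family, at -0.62, 0.80 and -0.51, although its other probe was at background level on every array. Agpat3 ran the other way with AR7 (0.72), and Lpin3 was 0.90 higher with CA39 and not well above background on AR7, where its spot lay among deviating neighbours. Over 18 genes of fatty acid oxidation the medians were -0.02, 0.15 and 0.04. Past 1.5-fold were Acadm (0.60) and Acadl (-0.60), both acyl-CoA dehydrogenases, with CA39. Cpt1a, which admits fatty acids to mitochondria, differed by 0.39 for AR7, 0.09 for CA39 and 0.24 for CA77.

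Markers of cell types were read beside these values. Of the 12 fibroblast markers, those compared had medians of -0.27 (AR7), 0.54 (CA39) and -0.21 (CA77), the signs of the family, but with CA39 S100a4 (-0.22) and Lum (-4.21) were lower. Their summed levels (log2) were 19.93 (untreated), 19.68 (AR7), 20.27 (CA39) and 19.77 (CA77). Of 12 adipocyte markers, 10, 6, 7 and 8 were detected in that order, with Fabp4, Pparg, Lpl, Retn, Lipe and Pnpla2 detected on all arrays and Adipoq and Cd36 on none. The summed adipocyte level ran from 14.37 on CA39 to 14.94 on AR7, and most of it came from 1 gene, the lipase Pnpla2. With CA39, Fabp4 was lower (-1.59) and Lipe higher (1.03), so the list had no common direction. Of 7 epithelial markers, 4, 3, 4 and 4 were detected, Cdh1 and Krt19 on none. The epithelial sum was 11.00 on CA39 and 9.82 to 9.96 on the other arrays. Krt8 was the brightest of this list on CA39 (10.04), 2.38 above untreated. Epcam was detected on CA39 only, where its spot lay among deviating neighbours. Of the 5 compared with CA39, 3 were higher by at least the tolerance and 1, Cldn4 (-0.33), was lower. Of 6 macrophage markers on the array, 6, 5, 4 and 6 were detected, with sums of 13.44 to 13.78. The part of these markers in the values of the family was not tested.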

How the data were processed

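Total RNA from 4 cultures was labelled with Cy3 and hybridised by the authors to 4 one-colour Agilent mouse arrays on 1 slide. The deposited scanner files hold spot and background intensities from Feature Extraction 10.7.3.1, and the deposited series table holds background-subtracted intensities without scaling between arrays. The methods name oligo and RMA, whose values were not used here. From the median spot and background intensities, normexp background correction (offset 0), quantile normalization and log2 were applied in limma 3.58.1 (R 4.3.3). Control spots and spots marked non-uniform or outlying were left out. A probe was detected where the scanner software called more than 50% of its spots well above background. Accessions were named through RefSeq (27512 probes, 20895 symbols), and other probes kept their file names. The brightest probe stood for a gene. A probe not detected on an array kept its own value there, or took the lowest detected signal of that array where this was higher, and where the brighter of the 2 arrays lacked detection the difference counted as 0. Calls required 2-fold (1.5-fold as the alternative) and detection on at least 1 of the 2 arrays compared. A spot had deviating neighbours where it and at least 2 further spots within 2 grid rows and columns differed by 1 or more (log2) from every other array in the same direction.

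The number of arrays, 1 per group, limits the precision, and no p-value was computed. The members and gene lists were chosen with earlier results of these data known. Named were all members with every probe, genes of the other lists past 1.5-fold against untreated (sterol and marker lists mostly as counts), 10 genes set by name (Srebf1, Srebf2, Insig1, Scap, Acss2, Me1, Acacb, Scd3, Fads3 and Cpt1a), and the 5 genes nearest to Fasn. The alternatives were another background offset, other scalings and source values, marked spots kept, the mean over probes, other floors, part of the grid, clustered spots left out and a 1.5-fold threshold. The calculation of differences was tested on simulated data.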

Additional observations from a re-analysis of the deposited data

How the results depend on the processing

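All 60 recomputed medians stayed within the tolerance of their value in the text, and 62 of 66 counts stayed within 1.5 times. The number of members past 2-fold with CA39 was 1 with the deposited series table scaled to the 75th percentile, 1 with clustered spots left out and 9 with a 1.5-fold threshold, which admits smaller differences by construction. With CA77 it was 2 with that threshold. The medians ranged from -0.36 to -0.24 with AR7, 0.70 to 0.83 with CA39 and -0.42 to -0.37 with CA77 over 10 alternatives each. Of 480 single-gene values, 476 stayed within the tolerance. The other 4 came from the mean over probes of Acly and Acaca, with Acaca at 0.52 with CA39 and Acly at -0.17 with CA77. Only values past 2-fold were checked for a change of sign, and 0 had one. Among smaller values, Acly for CA77 minus AR7 went from 0.20 to -0.03. Keeping marked spots or changing the floors gave the same values for the members, so these settings were no check on them. The median of CA77 minus AR7 ran from -0.18 to 0.02 and changed sign in grid rows over 160. Differences under the spot tolerance cannot be read at this precision, and the spread between cultures was not measured. No paired analysis was possible because each group had 1 array.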
